A study of Mus musculus with 10 samples.

Results

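Gene expression was described in the amygdala of normal mice, from the 5 of the 10 arrays in this study that carried wild-type RNA. These 5 samples were taken by their label alone, as wild-type controls 1 to 5, and no measured value entered that choice. The mice were C57BL/6, 3 months old and untreated as far as the labels say, and neither their sex nor the nuclei of the amygdala they gave are named. Amygdala tissue of 15 wild-type animals was cut from coronal brain slices after perfusion with cold saline, and RNA of 3 animals went to each array, read here as 5 separate pools. The other 5 arrays held amygdala RNA of neuropsin-/- mice of the same age, backcrossed to C57BL/6 for 12 generations, with the same number of animals and the same pooling. They were used to set the spread of a gene between knockout pools beside that between wild-type pools. They also entered the correlations of pools by number and the search for genes like Pmch. The labels number the pools 1 to 5 in both genotypes. Deviations of same-numbered pools correlated weakly, at 0.12 to 0.33, which overlaps the -0.29 to 0.31 between other pools. Since the numbers may pair the pools, the knockout pools are not taken as an independent second set. The platform was the Affymetrix Mouse Exon 1.0 ST array, whose probe sets each read roughly a single exon, and the level of a gene is the mean log2 value of its probe sets. With at least 3 probe sets named for that gene alone, 20087 genes were measured from 315619 probe sets, a median of 12 probe sets a gene.

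The amygdala is a group of nuclei in the temporal lobe that links sensory events with fear, reward and other emotional responses. Its lateral and basolateral nuclei resemble cortex and are built mainly of glutamatergic projection neurons with scattered GABAergic interneurons, whereas the central and medial nuclei resemble striatum and hypothalamus and are built mainly of GABAergic neurons, many of which also make neuropeptides. Fast excitation runs through AMPA and NMDA receptors, fast inhibition through GABA-A receptors, and peptides and monoamines tune both through G protein-coupled receptors.

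A level was read against a measured background, since the deposited table holds no detection call. The background bound of a pool was the 95th percentile of the levels of 621 genes of the olfactory receptor, vomeronasal receptor and keratin-associated protein families in that pool, and it stood at 5.19, 5.30, 5.21, 5.28 and 5.37 in pools 1 to 5. Of the 20087 genes, 12790 (63.7%) lay above the bound in all 5 pools and are called above background, 5564 (27.7%) lay above it in none and are called within background, and 1733 lay above it in some pools and are called borderline. A gene was called high when its mean level reached the 90th percentile of the measured genes, 8.31, which makes 2009 genes (10%) high by construction, and 201 genes reached the 99th percentile, 9.93. As a check on genes that the bound did not use, 49 genes of liver, skin, muscle, testis and other organs were read the same way. Of these, 30 were within background, among them Alb, the albumin gene, at 4.24 ± 0.093, and 15 were above it, the highest being Apoa2, an apolipoprotein of liver, at 6.54 ± 0.17. Levels between about the bound and 6.54 are therefore shared with genes of other organs, and a gene there is named as above the bound without more. With the bound set at the 99th percentile of the families instead, 7530 genes were above background. Values are log2 levels given as mean ± SD over the 5 pools unless stated. Probes differ in binding strength, so an order of levels between genes is approximate.

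The 5 pools were alike but not equally so. Pearson correlations between pools over all genes lay between 0.983 and 0.993. A principal component analysis of the levels put 57.0% of the variance on its first axis, on which pools 1, 2 and 3 lay at -13.8, -7.06 and -13.1, and pools 4 and 5 lay at 15.0 and 18.9. The median gene level was 6.26, 6.30 and 6.25 in pools 1 to 3 and 6.15 and 6.16 in pools 4 and 5. The labels name no batch. Where the spread of a gene or list rests on pools 4 and 5, its range without them stands beside it.

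**Figure D1:**
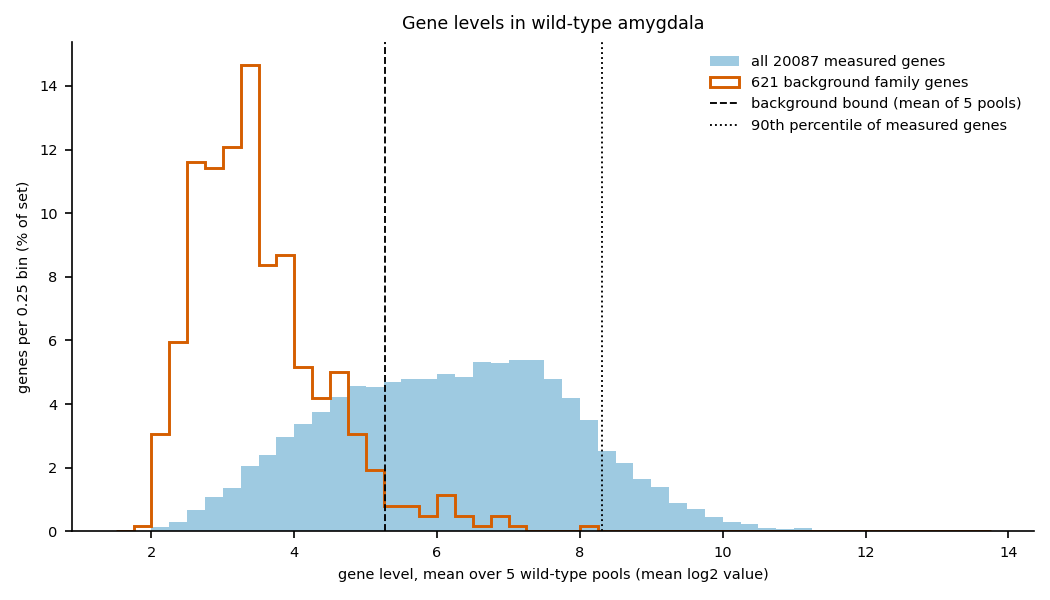
Distribution of the mean wild-type level (log2, 0.25 bins) of the 20087 measured genes (filled) and of the 621 background family genes (outline), each as a percentage of its own set. The background families sit mostly left of the dashed bound at 5.27, and the dotted line marks the 90th percentile of all genes at 8.31.

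Of the 20 genes with the highest levels in normal amygdala, 4 carried by the mitochondrial genome came first, ND1 at 13.22 ± 0.11, ND5 at 13.01 ± 0.062, COX1 at 12.87 ± 0.085 and COX3 at 12.61 ± 0.16, and COX2 followed at 11.36 ± 0.13. They encode subunits of respiratory complexes I and IV. Among nuclear genes, Psap, the precursor of the lysosomal saposins, stood at 12.07 ± 0.086, and Hspa8, a constitutive chaperone, at 12.06 ± 0.087. Scd2, a fatty acid desaturase of brain, reached 12.00 ± 0.15, Cst3, the secreted protease inhibitor cystatin C, 11.72 ± 0.22, and Apoe, the main lipid carrier made by astrocytes, 11.72 ± 0.18. Below them lay Gnb1, a G protein beta subunit, at 11.68 ± 0.076, Gpm6a, a neuronal membrane glycoprotein, at 11.53 ± 0.062, and Atp1b1, a sodium pump subunit, at 11.34 ± 0.069. Glul, the glutamine synthetase of astrocytes, stood at 11.48 ± 0.10, Sparcl1, a secreted matrix protein, at 11.33 ± 0.16, Atp5b, the catalytic subunit of ATP synthase, at 11.43 ± 0.11, and Cpe, the carboxypeptidase that trims neuropeptides, at 11.29 ± 0.13. Serinc1 and Fbxl16 stood at 11.53 ± 0.069 and 11.44 ± 0.15, and the remaining gene of the top 20 is a predicted transcript. None of these genes varied between pools by a full log2 unit, and the largest SD among the named ones was that of Cst3.

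Glutamate receptor genes were well represented, read against the 63.7% of all genes above background and the 10% high by construction. All 4 AMPA receptor subunits, the pores of fast excitatory transmission, were high, with Gria1 at 10.63, 10.31, 10.69, 10.62 and 10.63 in pools 1 to 5, Gria2 at 9.74 ± 0.18, Gria4 at 8.91 ± 0.18 and Gria3 at 8.83 ± 0.16. Of Gria1, pool 2 held the lowest value and the other pools lay close together. All 10 measured auxiliary subunits of these receptors were above background and 5 were high, led by Cnih2, a cornichon homologue, at 9.50 ± 0.14 and Cacng8 at 8.89 ± 0.18, with Cacng5 lowest at 7.47 ± 0.091. Of the 7 NMDA receptor subunits, 3 were high, and these were Grin1, the obligatory subunit, at 9.70 ± 0.074, Grin2b at 9.44 ± 0.045 and Grin2a at 9.24 ± 0.092. Each had an SD under 0.1. Grin2d, Grin3a and Grin2c lay lower, at 7.45 ± 0.14, 7.33 ± 0.10 and 7.23 ± 0.14, and Grin3b was borderline at 5.45 ± 0.26, above the bound in 4 pools. All 6 measured kainate and delta subunits were above background, with Grik5 at 9.40 ± 0.056, Grid1 at 9.04 ± 0.080 and Grik3 at 8.37 ± 0.15 high, and Grik2, Grik4 and Grik1 lower at 7.94 ± 0.28, 7.38 ± 0.091 and 6.80 ± 0.18. Among metabotropic receptors, Grm5, which couples to phospholipase C, stood far above the rest at 9.90 ± 0.14, and the presynaptic or glial receptors Grm3, Grm7, Grm8, Grm4 and Grm2 followed at 8.19 ± 0.18, 7.93 ± 0.12, 7.34 ± 0.14, 6.79 ± 0.16 and 6.78 ± 0.091. Grm6, known from the retina, was borderline at 5.16 ± 0.19, above the bound in 1 pool.

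Inhibitory receptor genes ranged from high to within background. For comparison, 63.7% of all genes were above background, 27.7% within it and 10% high. Of 16 measured GABA-A subunits, 9 were above background and 4 high, namely Gabrb2 at 9.28 ± 0.30, Gabra3 at 9.05 ± 0.15, Gabrb1 at 8.83 ± 0.16 and Gabra5 at 8.42 ± 0.21. Just under the 90th percentile lay Gabra4 at 8.30 ± 0.14, followed by Gabra2 at 7.80 ± 0.14, Gabrd, found in extrasynaptic receptors, at 7.41 ± 0.18, and Gabrg3 at 7.32 ± 0.15. Gabrg1 was the member that spread most, at 6.77, 6.12, 6.33, 6.00 and 5.73 in pools 1 to 5, highest in pool 1 and lowest in pool 5, and its range of 1.04 was 0.66 without pools 4 and 5. Gabrq and Gabrr2 were borderline at 5.48 ± 0.21 and 5.20 ± 0.12. Gabrr1, Gabrr3, Gabrp, Gabre and Gabra6, the last known from cerebellar granule cells, were within background, and Gabra6 was the lowest at 3.45 ± 0.059. Both GABA-B subunits were high, Gabbr1 at 10.24 ± 0.043 and Gabbr2 at 9.54 ± 0.073. Of the glycine receptor subunits, Glrb, which also anchors the receptor, was high at 8.40 ± 0.19, Glra2 and Glra3 stood at 7.44 ± 0.29 and 6.97 ± 0.31, Glra1 was borderline at 5.73 ± 0.40, and Glra4 was within background at 4.87 ± 0.12.

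**Figure D2:**
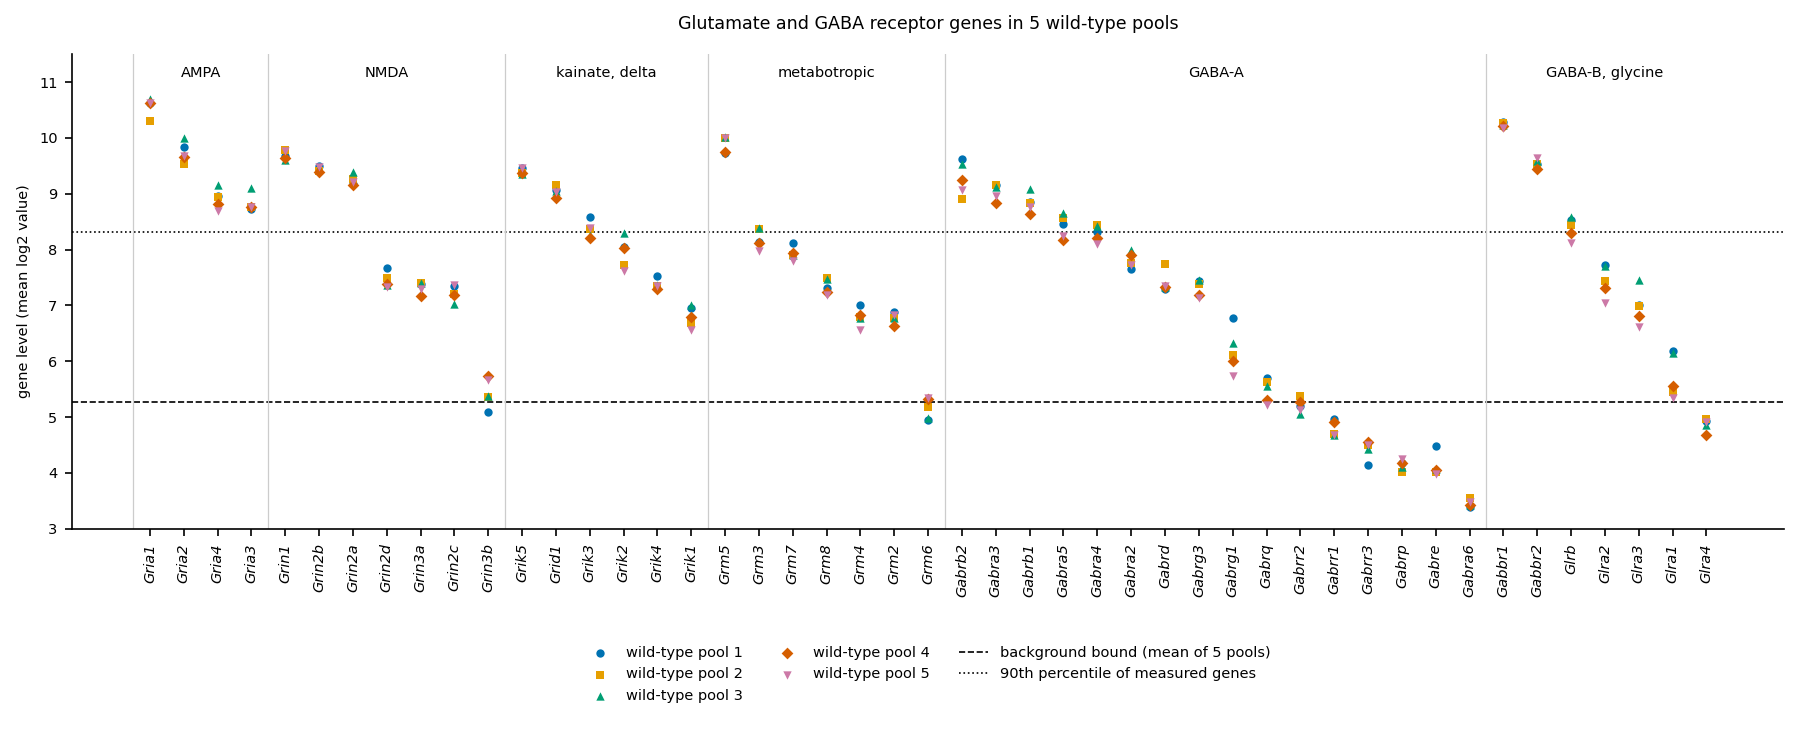
Level (mean log2 value) of 47 glutamate, GABA and glycine receptor genes in each wild-type pool, ordered by mean within each receptor class, with the mean background bound (dashed) and the 90th percentile of all genes (dotted). The AMPA subunits all lie above the dotted line, and Gabrr1, Gabrr3, Gabrp, Gabre and Gabra6 lie below the dashed line in every pool.

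Receptors for acetylcholine and the monoamines were mostly of middle level. None of 21 acetylcholine receptor genes was high, 10 were above background and 10 within it. Over all genes the shares were 10% high, 63.7% above background and 27.7% within it. The muscarinic receptors led, with Chrm1 at 7.83 ± 0.15, Chrm4 at 7.77 ± 0.18 and Chrm3 at 7.69 ± 0.15. They were followed by the subunits of the common brain nicotinic receptors, Chrnb2 at 7.56 ± 0.079, Chrna4 at 7.46 ± 0.17 and Chrna7 at 7.42 ± 0.13. Of the nicotinic subunits known from habenula, ganglia, muscle or the inner ear, Chrna3, Chrna1, Chrna5 and Chrna9 were within background, with Chrna9 at 4.38 ± 0.15. Some members of the list that are not named here were above background. Chrm2 varied, at 7.73, 7.24, 7.40, 7.08 and 6.52 in pools 1 to 5, and its range was 0.49 without pools 4 and 5. Of 14 serotonin receptor genes, 12 were above background. The highest were Htr2a at 8.11 ± 0.13, Htr1b at 7.82 ± 0.11 and Htr2c at 7.57 ± 0.23, Htr1a stood at 6.44 ± 0.16 and the channel subunit Htr3a at 6.10 ± 0.20, and Htr3b and Htr2b were within background at 4.76 ± 0.20 and 4.41 ± 0.25. Among dopamine and histamine receptors, Drd2 was high at 8.62 ± 0.20 and Drd1 lay lower at 7.56 ± 0.18, both in all 5 pools. Hrh3 and Hrh1 stood at 7.48 ± 0.17 and 7.28 ± 0.15, Drd5 was borderline at 5.30 ± 0.12, and Hrh4, known from blood cells, was within background at 4.04 ± 0.16. Of the alpha-2 and beta adrenergic receptors, Adra2c stood at 6.44 ± 0.18 and the others were not analysed here. The cannabinoid receptor Cnr1 stood at 7.89 ± 0.20 and Cnr2, known from immune cells, was within background at 4.28 ± 0.18.

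Steroid and peptide receptors covered the whole range. Both corticosteroid receptors, Nr3c1 (glucocorticoid) at 8.15 ± 0.21 and Nr3c2 (mineralocorticoid) at 8.12 ± 0.19, lay just under the 90th percentile. Pgr, the progesterone receptor, stood at 6.35 ± 0.14, and the oestrogen receptors Esr1 and Esr2 were borderline at 5.36 ± 0.14 and 5.27 ± 0.040. Of 49 peptide receptors, 29 were above background, against 63.7% of all genes, 14 borderline and 6 within background. Against the 10% high by construction, 2 were high. These were Adcyap1r1, the receptor for PACAP, at 9.07 ± 0.074 and Ntsr2, a neurotensin receptor also found on astrocytes, at 8.97 ± 0.13. The somatostatin receptors Sstr4, Sstr1 and Sstr2 stood at 7.79 ± 0.26, 7.72 ± 0.17 and 7.32 ± 0.18, and Npy1r at 7.35 ± 0.23. Crhr1, the receptor for corticotropin-releasing hormone, stood at 7.16 ± 0.049, and Oxtr, the oxytocin receptor, at 6.36 ± 0.32. Of the opioid receptors, Oprl1 and Oprd1 stood at 7.56 ± 0.24 and 7.49 ± 0.17, Oprk1 at 6.49 ± 0.21, and Oprm1, the mu receptor, was borderline at 5.22 ± 0.20, above the bound in 2 pools. Nmur2, a neuromedin U receptor, was the lowest of the list at 3.82 ± 0.082.

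Neuropeptide precursors were high or above background about as often as genes in general. Of 42 measured precursors, 25 were above background, against 63.7% of all genes, 7 borderline and 10 within background, and 3 were high, against the 10% that is high by construction. Penk, the enkephalin precursor, was at 10.47, 10.41, 10.30, 10.28 and 10.12 in pools 1 to 5. Sst, the somatostatin precursor, was at 9.45, 9.56, 9.55, 9.32 and 9.56, and Cck, the cholecystokinin precursor, at 9.11, 9.24, 9.31, 9.16 and 9.16. These 3 genes lay above the 90th percentile in every pool. Tac1 (substance P) and Npy (neuropeptide Y) lay just below it at 8.22 ± 0.42 and 8.21 ± 0.32, and Tac1 was lowest in pool 5, at 8.35, 8.51, 8.57, 8.16 and 7.53 in pools 1 to 5, a range of 1.04 and 0.22 without pools 4 and 5. Pdyn (dynorphin), Tac2 (neurokinin B), Grp (gastrin-releasing peptide) and Cartpt stood at 7.02 ± 0.28, 6.83 ± 0.30, 6.82 ± 0.17 and 6.81 ± 0.19. Nts (neurotensin), Pnoc (nociceptin), Adcyap1 (PACAP) and Vip lay in the range that genes of other organs also reach, at 6.45 ± 0.27, 6.40 ± 0.25, 6.36 ± 0.25 and 5.80 ± 0.25. Crh, known from the central nucleus, was borderline at 5.39, 5.36, 5.46, 5.25 and 4.70, above the bound in 3 pools. Agrp, Nmu, Gal, Iapp and Nps were within background, with Nps lowest at 3.57 ± 0.13. Npb varied, with a range of 1.02 that was the same without pools 4 and 5. All 11 genes of granins and peptide processing were above background and 7 were high. Apart from Cpe these were led by the convertase Pcsk2 at 9.17 ± 0.26, Pcsk1n at 9.16 ± 0.13 and the granin Scg3 at 9.13 ± 0.16. The lowest of the 11 was Scg2 at 7.37 ± 0.29.

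Upstream sequences are shown for 4 precursors because they span the levels described: Sst is high and steady, Cartpt is of middle level, and Hcrt and Pmch are near the bound and spread between pools, with values given further on. They are RefSeq sequences of build GRCm38.p6, the 120 bases before the annotated start, read 5′ to 3′ on the gene's strand. Capitals mark a cyclic AMP response element (TGACGTCA) in the first pair, at chr16:23890845-23890964 (minus strand) for Sst and chr13:99900684-99900803 (minus strand) for Cartpt. In the second pair they mark the TATA box letters TATAAA, at chr11:100762932-100763051 (minus strand) for Hcrt and chr10:88090952-88091071 (plus strand) for Pmch.
Sst: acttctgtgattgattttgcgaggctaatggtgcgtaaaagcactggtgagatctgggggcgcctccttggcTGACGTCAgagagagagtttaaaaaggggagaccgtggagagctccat
Cartpt: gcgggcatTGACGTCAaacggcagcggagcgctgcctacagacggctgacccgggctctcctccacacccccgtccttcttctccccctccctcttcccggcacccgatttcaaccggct
Hcrt: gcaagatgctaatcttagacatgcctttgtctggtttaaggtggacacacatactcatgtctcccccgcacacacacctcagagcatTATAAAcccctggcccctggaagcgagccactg
Pmch: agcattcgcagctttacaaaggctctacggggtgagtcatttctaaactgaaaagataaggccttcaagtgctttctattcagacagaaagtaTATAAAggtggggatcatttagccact

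The element TGACGTCA, which reads the same on both strands, began 48 bases before the start of Sst and 112 before that of Cartpt. It occurred within 250 bases upstream of the start in 508 of all 32851 promoters in the table (1.55%) and in 3 of the 32 measured precursors with an entry, the third being Ucn, whose gene lay at 6.46 ± 0.12. The letters TATAAA began 33 bases before the start of Hcrt and 27 before that of Pmch, and on either strand they occurred in 12.4% of all promoters and in 11 of the 32 precursors. These are matches of letters only.

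**Figure D3:**
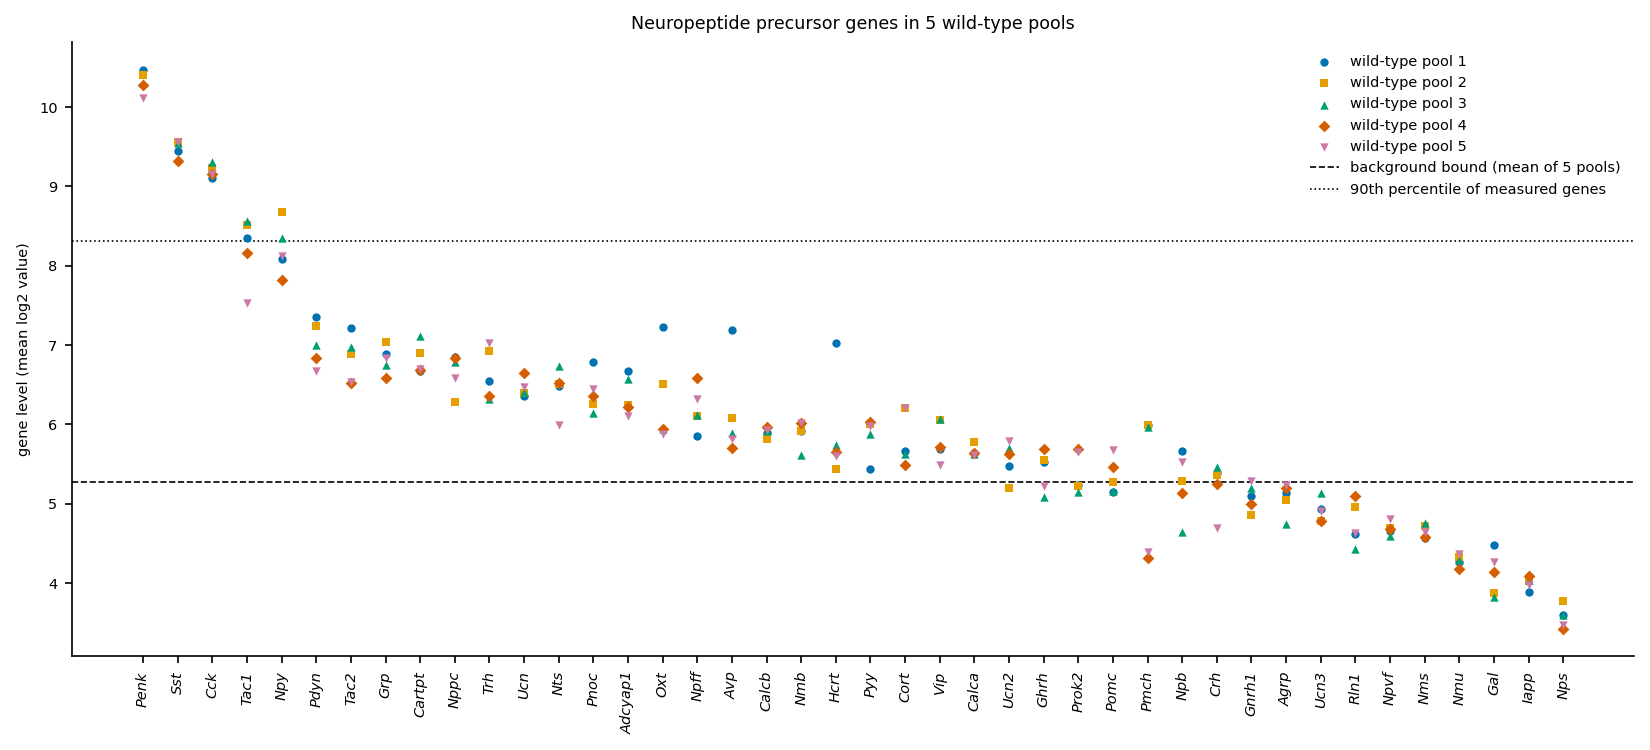
Level (mean log2 value) of 42 neuropeptide precursor genes in each of the 5 wild-type pools, ordered by mean, with the mean background bound (dashed) and the 90th percentile of all genes (dotted). Penk, Sst and Cck lie above the dotted line, and Oxt, Avp, Hcrt and Pmch show pools set apart from the others.

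Markers of neurons and glia stood well above background. The shares over all genes were 63.7% above background and 10% high. In such bulk tissue, fewer cells of a type and less RNA per cell cannot be told apart. All 14 measured general neuron genes were above background and 12 were high, with the growth cone protein Gap43 at 11.25 ± 0.088, the vesicle calcium sensor Syt1 at 10.90 ± 0.065 and Snap25, a membrane fusion protein, at 10.29 ± 0.10. Of 11 excitatory markers, 10 were above background and 6 high. Camk2a, a kinase of excitatory synapses, stood at 11.04 ± 0.038, the vesicular glutamate transporter Slc17a7 at 10.16 ± 0.16 and Nrgn, a postsynaptic calmodulin binder, at 9.81 ± 0.11. Slc17a6, the transporter of subcortical glutamatergic neurons, lay lower at 7.92, 6.96, 7.41, 7.08 and 6.69 in pools 1 to 5 and varied, highest in pool 1. Neurod6 also varied, with a range of 1.00, and 0.23 without pools 4 and 5. Of 16 inhibitory markers, 15 were above background and 6 high, with the GABA-synthesising enzymes Gad1 at 9.82 ± 0.22 and Gad2 at 9.31 ± 0.23 and the vesicular GABA transporter Slc32a1 at 8.41 ± 0.27. Among interneuron proteins, Calb1, Calb2 and Pvalb stood at 8.61 ± 0.17, 7.30 ± 0.34 and 7.04 ± 0.32, and the transcription factor Lhx6 at 7.57 ± 0.11. All 16 astrocyte markers were above background and 8 were high, including Aldoc, an aldolase, at 11.23 ± 0.075 and the glutamate transporter Slc1a2 at 10.70 ± 0.15, and Gfap, a filament protein, stood at 7.99 ± 0.37. S100b, found in astrocytes and some oligodendrocytes, varied around 7.34 ± 0.47, highest in pool 1 and lowest in pool 5, and its range of 1.26 was 0.69 without pools 4 and 5.

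Myelin genes were also high. The counts here stand against 63.7% of all genes above background, 27.7% within it and 10% high. Of 14 measured oligodendrocyte genes, 13 were above background and 7 high, with the iron carrier Trf at 10.32 ± 0.47, Cldn11 at 9.26 ± 0.27, Mbp, myelin basic protein, at 9.24 ± 0.24 and Cnp at 9.17 ± 0.50. All 10 precursor cell markers were above background, led by Olig1 at 8.43 ± 0.19. Of 14 microglial genes, 13 were above background and none was high, with Csf1r at 8.20 ± 0.17 and the complement gene C1qb at 8.06 ± 0.31 leading. Of 13 endothelial genes, 12 were above background, with the glucose transporter Slc2a1 at 9.67 ± 0.22 and Cldn5 at 6.05 ± 0.44. Of 12 pericyte and smooth muscle genes, 11 were above background, and Vtn stood at 9.42 ± 0.17. Markers of other immune cells were at background: 9 of 12 were within it, 1 of 12 was above it, and Ptprc, the pan-leukocyte gene, stood at 4.82 ± 0.16. Of 10 ependymal genes, 4 were above background and 6 within it. Of 5 blood cell genes with their own probe sets, Hbb-b1 stood at 8.16 ± 0.33 and the others were borderline or within background.

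Most genes known from the amygdala were above background, as were many of its neighbours. Of 18 lateral and basolateral genes, 17 were above background and 5 high, with Lypd1 at 9.28 ± 0.15, Lmo3 at 9.03 ± 0.12 and Rspo2, a Wnt agonist of the basolateral nucleus, at 6.57 ± 0.13. Of 21 central and medial genes, 19 were above background and 3 high, namely Sst, Wfs1 at 9.06 ± 0.14 and Drd2. Prkcd, a kinase that marks a neuron class of the central nucleus, stood at 6.87 ± 0.23. Striatal and intercalated cell genes overlap this list, and 17 of 18 were above background with 8 high, among them Adcy5 at 9.75 ± 0.087, Gng7 at 9.19 ± 0.10 and Ppp1r1b, also expressed in amygdala, at 9.11 ± 0.19. Of cortical genes 14 of 15, of thalamic and habenular genes 11 of 12, of hippocampal genes 10 of 14 and of hypothalamic genes 11 of 22 were above background, against 63.7% of all genes. None of the thalamic or hypothalamic genes was high. Tdo2, a dentate gyrus gene, was within background at 3.40 ± 0.089, as were the hypothalamic genes Nr5a1, Lhx9, Hdc, Agrp and Gal. None of these lists is made of genes found in a single region, so the counts do not go against the labelled tissue and do not separate it from its neighbours in the slice.

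Among genes that report on state, the share above background differed by list, with 63.7% of all genes above it. Of 18 immediate early genes, 16 were above background and none was high. Homer1 and Nr4a1 stood at 8.10 ± 0.23 and 8.09 ± 0.18, Arc at 7.66 ± 0.083 and Egr1 at 7.43 ± 0.096, and Fos was lower at 5.85 ± 0.17. All 18 circadian clock genes were above background, with the output factor Dbp at 8.67 ± 0.085 and Nr1d1 at 8.49 ± 0.15 high and Per2 at 7.02 ± 0.068. The median SD of the clock genes over pools was 0.12. Of 16 stress and glucocorticoid responsive genes, 15 were above background, including the metallothioneins Mt1 and Mt2 at 9.38 ± 0.19 and 8.57 ± 0.27, Sgk1 at 7.73 ± 0.28 and Fkbp5, an immunophilin that restrains the glucocorticoid receptor, at 7.21 ± 0.17. Among voltage-gated channels, 12 of 19 were above background, a share close to that of all genes, with the calcium channel Cacna1e at 9.47 ± 0.074 and the sodium channel Scn2a at 9.36 ± 0.12 leading. The sodium channels of sensory neurons, Scn10a and Scn11a, and the muscle and retinal calcium channels Cacna1s and Cacna1f were within background. Of 28 genes for making and carrying transmitters, 16 were above background, again near the share of all genes. Among those of serotonin, noradrenaline, acetylcholine and dopamine neurons, Tph2, Slc6a4 and Dbh were within background at 4.12 ± 0.083, 4.93 ± 0.15 and 4.81 ± 0.16, Chat was borderline at 5.26 ± 0.23, and Th lay at 6.52 ± 0.29. Of the sex-linked genes, the Y-linked Eif2s3y and Kdm5d were above background in all pools at 7.54 ± 0.19 and 6.52 ± 0.25. Uty, also Y-linked, varied between pools, with a range of 1.07, and 1.04 without pools 4 and 5. Xist was within background in all pools, at 3.72, 3.96, 3.74, 3.55 and 3.94.

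Neuropsin itself was near the background bound in normal amygdala. Klk8, the gene of this secreted serine protease, stood at 5.52, 5.07, 4.78, 5.23 and 5.26 in pools 1 to 5, above the bound of the pool in pool 1 alone. Over its 9 probe sets the mean was 5.17 ± 0.27. Pool 1 was the highest pool in some of these probe sets and the lowest in others. In the dimmest probe set of Klk8, of mean 2.78, pool 1 was highest at 4.20. In the brightest, of mean 7.16, pool 1 was lowest at 6.87. Of 14 measured kallikreins, 5 were above background, against 63.7% of all genes. The highest was Klk15 at 5.89 ± 0.27, which lies in the range reached by genes of other organs. Klk6, a protease known from oligodendrocytes, stood at 5.57 ± 0.13, and Klk1, Klk9, Klk5 and Klk1b1 were within background. Of 16 genes listed as neuropsin substrates or partners, 14 were above background, against 63.7% of all genes, and 6 were high. Among them were Syp at 10.43 ± 0.049, Ncam1 at 9.09 ± 0.12 and L1cam, an adhesion molecule cleaved by neuropsin, at 8.93 ± 0.11. The list is wider than the known substrates and holds general neuronal genes such as Syp. No link of its members to neuropsin was tested. Ephb2, an ephrin receptor, stood at 6.99 ± 0.10, Nrg1, a growth factor, at 6.51 ± 0.073, and Plg, the plasminogen gene, was within background at 4.78 ± 0.045.

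The pools agreed closely on most genes. The median SD over the 5 pools of genes above background was 0.16, and 214 of the 20087 genes (1.07%) varied, meaning that their range over the pools was at least 1 on the log2 scale and that they exceeded the bound in at least 1 pool. Of these 214 genes, 115 were above background in all pools and 54 were predicted genes, pseudogenes or small RNA genes. The count was 57 without pools 4 and 5, 98 without pool 1 and 113 without pool 5. Among the varying genes, 91 (42.5%) were highest in pool 1 and 102 (47.7%) were lowest in pool 5, whereas of all genes 25.7% were highest in pool 1 and 27.7% lowest in pool 5. Of the 633 listed genes, 32 varied, and they fell chiefly into choroid plexus, myelin and peptide genes. Apoa1, of the genes of other organs, was also among them, with a range of 1.03, and 0.69 without pools 4 and 5.

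Over the 5 pools the choroid plexus list had the widest range of the 45 lists, and without pool 4 the myelin list had a wider one. The choroid plexus is the epithelium in the ventricles that secretes cerebrospinal fluid, and it is not part of the amygdala. Ttr, its thyroid hormone carrier, stood at 10.69, 11.83, 11.55, 8.74 and 10.77 in pools 1 to 5, lowest in pool 4 and highest in pool 2, and all 7 of its probe sets had a range of at least 1. Enpp2, the enzyme autotaxin, also made by oligodendrocytes, stood at 9.25, 10.12, 9.85, 8.52 and 8.95, with the same lowest and highest pools, and all 35 of its probe sets had a range of at least 1. Kl (klotho) followed at 6.52, 6.97, 6.85, 5.73 and 6.46, the potassium channel Kcnj13 at 6.08, 6.88, 6.83, 5.64 and 6.30 and Clic6 at 5.84, 6.44, 6.79, 5.52 and 5.88. Of 11 choroid plexus genes, 6 varied, the last being Sostdc1, whose range of 1.23 was 0.18 without pools 4 and 5. The mean deviation of the list from its own average was -0.08, 0.50, 0.29, -0.65 and -0.05 in pools 1 to 5, a range of 1.15, and 0.58 without pools 4 and 5. Without pool 4 alone it was also 0.58, below the 0.88 of the myelin list. The range of Ttr was 3.10, and 1.15 without pools 4 and 5. Without them that of Enpp2 fell from 1.60 to 0.87, that of Kl from 1.24 to 0.45, and that of Kcnj13 from 1.24 to 0.79. Among the ependymal genes, which line the ventricles, Rarres2 varied with pool 4 lowest, at 6.28, 6.70, 6.42, 5.66 and 6.21, a range of 1.05 and 0.43 without pools 4 and 5, and of the meningeal genes Slc13a4 varied, at 6.64, 7.67, 7.46, 7.04 and 7.26, lowest in pool 1.

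Myelin genes were the second list to spread. Of its 14 genes, 7 varied. Ermn, an oligodendrocyte cytoskeletal protein, stood at 7.81, 7.94, 7.70, 6.79 and 6.50 in pools 1 to 5, and Mog, myelin oligodendrocyte glycoprotein, at 9.07, 9.08, 8.53, 8.14 and 7.85. Trf was at 10.59, 10.82, 10.36, 10.26 and 9.57, and Cnp, an enzyme of the myelin sheath, varied around 9.17 ± 0.50. In each of these 4 genes pool 5 was lowest, and all probe sets of Ermn and Mog had a range of at least 1. Without pools 4 and 5 the range of Ermn was 0.24 in place of 1.43, that of Mog 0.55 in place of 1.23, that of Trf 0.47 in place of 1.25 and that of Cnp 0.67 in place of 1.26. Mobp, Opalin and Aspa also varied, with ranges between 0.15 and 0.43 without these pools. The mean deviation of the list was 0.33, 0.33, 0.07, -0.19 and -0.55 in pools 1 to 5, a range of 0.88, and 0.26 without pools 4 and 5. The mean deviation of all genes was 0.04, 0.05, 0.02, -0.06 and -0.05, a far smaller range. Low values in pool 5 were neither particular to non-neuronal lists nor shared by all of them. General neuron, inhibitory and striatal lists were also lowest in pool 5, and the excitatory list in pool 4. Pericyte and smooth muscle genes were highest in pool 5. Ependymal genes were lowest in pool 4, and meningeal and other immune cell genes in pool 1. The endothelial, precursor cell, astrocyte and microglial lists were lowest in pool 5, with ranges of 0.44, 0.42, 0.32 and 0.32. The ranges of neuronal lists overlapped with these. They were 0.20 for general neuron genes, 0.19 for excitatory and 0.28 for inhibitory markers. For AMPA receptor subunits, striatal genes and GABA-B and glycine receptor subunits they were 0.35, 0.37 and 0.39. With the deviation of all genes taken off, the endothelial, precursor cell, astrocyte and microglial ranges were 0.36, 0.33, 0.23 and 0.22. Those of the neuronal lists, in the order given, were then 0.12, 0.12, 0.20, 0.39, 0.27 and 0.32.

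**Figure D4:**
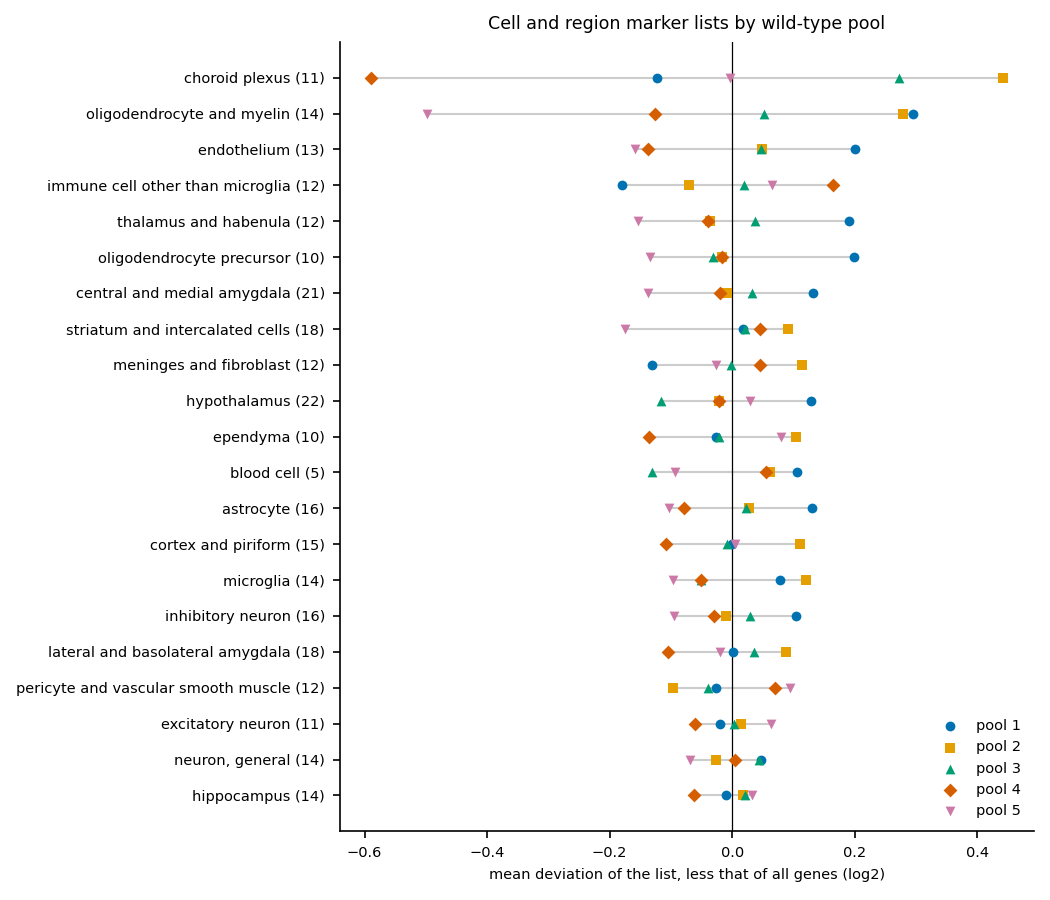
Mean deviation of 21 cell and region marker lists in each wild-type pool from the list's average over pools, after taking off that of all genes (log2), with the number of measured genes in brackets. Over the 5 pools choroid plexus genes range widest, with pool 4 lowest and pool 2 highest, and myelin genes follow with pool 5 lowest.

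Peptides of the hypothalamus spread gene by gene. Hcrt, the orexin precursor, stood at 7.03, 5.44, 5.74, 5.65 and 5.60 in pools 1 to 5, Avp, vasopressin, at 7.19, 6.08, 5.89, 5.70 and 5.82 and Oxt, oxytocin, at 7.22, 6.51, 5.95, 5.94 and 5.88. In all 3 genes pool 1 was highest, and without it their ranges were 0.30, 0.39 and 0.63. Pmch, the precursor of melanin-concentrating hormone, followed another order, at 6.00, 5.99, 5.97, 4.31 and 4.39. It exceeded the bound in pools 1, 2 and 3 and not in pools 4 and 5. All 6 of its probe sets had a range of at least 1, but not in the same direction. The dimmest, of mean 2.22, was lowest in pool 1 at 1.56 and highest in pool 5 at 3.00. The range of the Pmch level was 1.69, and 0.03 without pools 4 and 5. Orexin and melanin-concentrating hormone neurons are known from the lateral hypothalamus, and vasopressin and oxytocin from its magnocellular nuclei, with vasopressin also made in the medial amygdala. The whole hypothalamic list was highest in pool 1, with a mean deviation of 0.17 there and 0.03, -0.10, -0.08 and -0.02 in pools 2 to 5, and 4 of its 22 genes varied. Without Hcrt, Avp, Oxt and Pmch, the other 18 genes had mean deviations of -0.01, 0.02, -0.11, 0.01 and 0.09. Agrp, Gal, Hdc and Nr5a1 were within background in all pools. The part of neighbouring hypothalamic tissue in the values of Hcrt, Avp, Oxt and Pmch was not tested. The range of the whole list was 0.27, and 0.13 without pool 1. Likeness to Pmch over all 10 arrays, after centring within genotype, was sought only among the genes that varied between wild-type pools. The most like was the bombesin receptor gene Grpr with a correlation of 0.92, then Bbox1, Mpeg1 and Ddit3. Pmch had an SD of 0.90 over the wild-type pools and 0.29 over the knockout pools. The correlation thus reads chiefly the same wild-type pools whose range chose the candidates. All 10 arrays also share their platform and normalization, so this likeness is a description.

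Other genes spread outside these lists. Hspa9, a mitochondrial chaperone, stood at 9.46, 8.20, 8.81, 8.41 and 8.07 in pools 1 to 5, with 18 of its 20 probe sets at a range of at least 1, and Cldnd1, a claudin-like membrane protein, at 10.17, 8.74, 9.49, 9.03 and 8.77. Both were highest in pool 1. Lrrn1, a leucine-rich repeat membrane protein, was set apart in pool 3, at 8.50, 8.63, 9.85, 8.59 and 8.31, and its range was 0.32 without that pool. Elovl7, a fatty acid elongase, and Tnfaip6, a hyaluronan-binding protein, were lower in pools 4 and 5, at 7.39, 7.33, 7.45, 6.34 and 6.22 and 7.00, 6.70, 6.61, 5.85 and 5.56, and without these pools their ranges fell from 1.24 to 0.12 and from 1.45 to 0.39. Ptp4a1 and Ndufa2, at 7.20, 6.25, 6.83, 5.66 and 5.69 and 7.22, 5.74, 6.02, 5.66 and 5.94, rest on 3 and 5 probe sets, and the range of Ptp4a1 was 1.54, and 0.95 without pools 4 and 5. F5, coagulation factor V, crossed the bound between pools at 5.06, 6.09, 5.78, 4.55 and 5.20, and 28 of its 32 probe sets had a range of at least 1. The neurokinin receptor Tacr3 crossed it at 6.54, 5.38, 5.68, 5.55 and 5.02, highest in pool 1. In Lhfpl3 and Cldn5, by contrast, only 1 probe set of 4 and 1 of 3 had such a range, and the range of Lhfpl3 was 1.17, and 0.70 without pools 4 and 5. At the other end, the steadiest genes of at least the median level included Cadm3, a synaptic adhesion molecule, at 9.20 ± 0.017, Dner, a Notch ligand of neurons, at 9.27 ± 0.019, Eno2, neuronal enolase, at 9.79 ± 0.022, and Csnk1d, a clock kinase, at 8.03 ± 0.025.

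**Figure D5:**
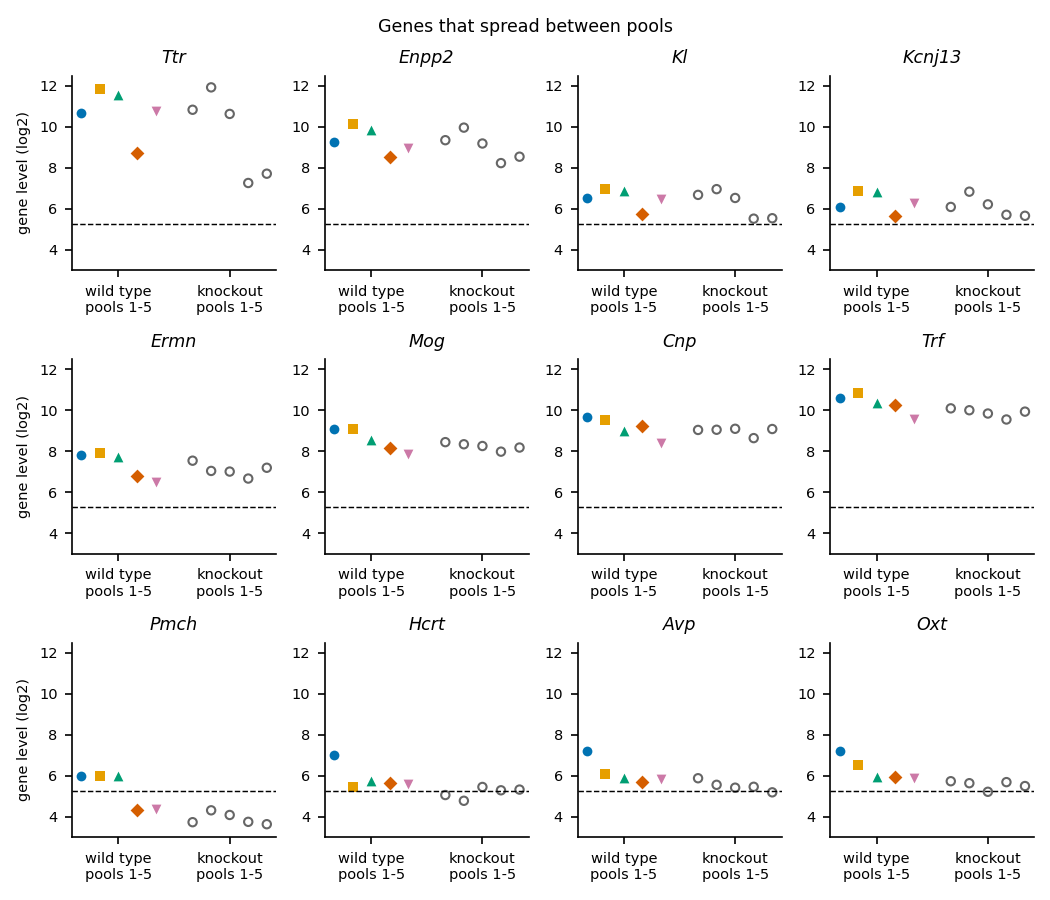
Level (mean log2 value) of 12 genes that spread between wild-type pools, for choroid plexus (top), myelin (middle) and hypothalamic peptide genes (bottom), in the 5 wild-type pools (coloured) and the 5 neuropsin-/- pools (open circles), with the mean wild-type background bound dashed. Ttr ranges widely in both sets of pools, and Hcrt and Avp have a single high pool among the wild-type pools.

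The knockout pools gave a like spread for choroid plexus genes and a smaller one for myelin genes and for Hcrt, Avp and Oxt. Ttr had an SD of 2.06 over the knockout pools against 1.21 over the wild-type pools, Enpp2 0.68 against 0.65 and Kl 0.67 against 0.49, and the range of the choroid plexus list was 1.30 against 1.15. The mean deviation of the list was 0.22, 0.77, 0.03, -0.53 and -0.49 in knockout pools 1 to 5, so that pool 2 was highest and pool 4 lowest in both genotypes. Ttr, Enpp2 and Kl were likewise highest in pool 2 and lowest in pool 4 in both. The myelin list ranged by 0.39 in the knockout pools against 0.88, and Mog had an SD of 0.18 against 0.55. Hcrt, Avp and Oxt had SDs of 0.27, 0.25 and 0.21 in the knockout against 0.64, 0.61 and 0.58, and Lrrn1 0.11 against 0.62. Of the 214 genes that varied in wild type, 25 had a range of at least 1 in the knockout too. Hcrt, Avp, Oxt, Lrrn1 and Mog were among the genes of largest wild-type SD, and the 214 were picked by their wild-type range. A smaller spread of these genes in the knockout can follow from that choice alone, and it is no result about genotype. Over the 12790 genes above background, the median SD was 0.10 in the knockout and the Spearman correlation of both sets of SDs was 0.30, a description over genes that share probes and array design. The lists were chosen with earlier results of all 10 arrays known and the pools share their numbers, so the like spread of choroid plexus genes is no independent check, and the differences in spread between genotypes were not tested.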

How the data were processed

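Total RNA of mouse amygdala, depleted of ribosomal RNA, was hybridised to exon arrays, 5 of wild type and 5 of neuropsin-/- pools. As deposited, each of 1256831 probe sets has a log2 value on each array, made by the authors with RMA in Affymetrix Expression Console, per the labels, with no version stated there. RMA equalises the distribution of values across arrays, so a shift common to all genes cannot be seen. The platform annotation named 325444 of them, 318760 with 1 gene, and symbols were brought up to date through a RefSeq gene table of GRCm38.p6 (18006 of 22296 were current, 4227 were updated). Probe sets with several genes were left out, which removes some near-identical genes.

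Gene levels, background bound, classes and spread were computed as the report defines them, in Python 3.11.15 with numpy 2.4.6 and pandas 2.3.3, and the steps were tested on simulated data. Dixon's criterion was applied to single pools of the named genes and lists. No other test was run, and an SD covers the 5 pools, whose number limits the precision. The labels number the pools 1 to 5 in each genotype. Over the 12790 genes above background, deviations from the genotype mean correlated between same-numbered wild-type and knockout pools at 0.12 to 0.33, and between other pools at -0.29 to 0.31. All 5 same-numbered correlations exceeded 0.1, so the numbers were read as possible pairs, from the data alone. Only 2 of 5 wild-type pools were most like the knockout pool of their own number. The 45 lists held 690 genes, of which 633 (91.7%) were measured. A symbol that proved to name another gene was dropped from a list. Members and lists were chosen with earlier results of these data known. Named genes were Klk8, the 20 of highest level, the extremes of each list, the genes of largest and smallest SD and those most like Pmch. Other genes named, which are middle members of lists, were chosen after their values were seen. Promoters came from RefSeq, and scanner files were not used here.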

Additional observations from a re-analysis of the deposited data

Results flagged for a closer look

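In 17 of 256 named genes and in 1 of 45 lists, a single wild-type pool stood apart from the other 4 by Dixon's criterion (95% level), which chance alone meets in about 1 group in 20. Pool 1 gave the highest value of Avp (7.19), Hcrt (7.03), Ndufa2 (7.22), Ntsr2 (9.20), Slc2a1 (10.05) and Gabre (4.47) and the lowest of Sstr2 (7.01), Gabrr3 (4.14) and Scn11a (4.06). Pool 2 gave the highest value of Fbxl16 (11.70), Gabrd (7.74) and Scn10a (5.14) and the lowest of Gria1 (10.31). Pool 3 gave the highest value of Lrrn1 (9.85) and Gria3 (9.10) and the lowest of Eno2 (9.76). Pool 5 gave the lowest value of Crh (4.70). Of the lists, the excitatory neuron genes lay lowest in pool 4, with a mean deviation of -0.12. Gabre, Gabrr3, Scn10a and Scn11a are within background, and the range of Eno2 was among the smallest measured. The rate of 1 in 20 holds for groups picked without regard to their values. Avp, Hcrt, Ndufa2 and Lrrn1 met the naming rule for large SD over these same pools, and Eno2 that for small SD. For such genes that rate does not apply.

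Probe sets shared by near-identical genes entered no gene level. The 10 that read the alpha-globin genes Hba-a1 and Hba-a2 had a mean of 9.96, and the 7 that read the beta-globin genes Hbb-b1 and Hbb-b2 a mean of 9.98, well above the background bound of 5.27. Their values in pools 1 to 5 were 10.36, 10.31, 9.62, 9.75 and 9.74 for alpha and 10.56, 10.31, 9.63, 9.99 and 9.42 for beta globin, highest in pools 1 and 2.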

How the results depend on the processing

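Which genes were above background depended on how background was read: the count of 12790 became 7530 with the bound at the 99th percentile of the families, and 2049 when only probe sets above the overall median were kept, which by construction leaves the background families their brightest probe sets. The count of varying genes, 214, was least stable. It became 1110 with the median over probe sets, 51 with bright probe sets only, 377 with at least 1 and 100 with at least 6 probe sets a gene, 116 with the 99th percentile bound, and 950 or 17 with a range of 0.75 or 1.5 as the criterion. It ran from 98 to 176 when each pool was left out in turn and was 57 without arrays 4 and 5. The range of the choroid plexus list ran from 0.580 to 1.15 over these omissions and was 0.580 without pool 4, where the myelin list, at 0.878, ranged wider. It was 0.580 also without arrays 4 and 5, and that of the myelin list fell from 0.878 to 0.264 without those arrays. The hypothalamic range of 0.265 became 0.114 with at least 6 probe sets and ran from 0.130 to 0.265 over the omissions. Repeated quantile normalization and centring on the array median kept each of these counts and ranges within 1.5 times its value, as did centring gene levels, an alternative chosen after seeing the data. The level of 151 of the 256 named genes moved by more than its SD with the median over probe sets, so a level is read to within that choice. The causes were not tested. No paired analysis was possible because the report tests no difference between genotypes that a block could enter, and the likeness of same-numbered pools is given as values only.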
